A study of Rattus norvegicus with 4 samples.

Results

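The genes described here are 10 genes of the alveolar macrophage programme that is tied to the nuclear receptor PPARG and to granulocyte-macrophage colony-stimulating factor (GM-CSF). They are Pparg, Fabp4, Cidec, Lpl, Krt79, Car4, Csf2ra, Csf2rb, Tgfbr2 and Bhlhe40. Their probes were found by matching the RefSeq accession of each non-control probe to the gene's rat symbol, which gave 11 of the 45598 probes on the array for 10 of 16581 named genes. Expression was measured in NR8383, an established line of rat alveolar macrophages first obtained by lung lavage. Every culture had received the pristine single-walled carbon nanotube NRCWE055 at a dose of 11 cm2/cm2 for 4 h, and the labels give 20 passages. All 4 samples form 1 exposed group. The design calls them biological replicates, and no label says more about how the cultures were separated. Unexposed cells were not analysed here, and the levels are those of exposed cells, with no measure of what the nanotubes changed. The grouping follows the sample titles; for replicates 2, 3 and 4 the source names give different nanotube codes.

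Alveolar macrophages live at the air surface of the lung and take up and break down surfactant lipids. GM-CSF from the alveolar epithelium binds a receptor made of an alpha chain, encoded by Csf2ra, and a shared beta chain, encoded by Csf2rb, and signals through JAK2 and STAT5. This signal induces Pparg, whose product pairs with a retinoid X receptor and switches on genes of lipid uptake, transport and storage. Transforming growth factor beta, read by the receptor encoded by Tgfbr2, is also needed for these cells to mature. The transcription factor encoded by Bhlhe40, with its relative BHLHE41, supports their self-renewal.

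Among probes detected on all arrays the 75th percentile of signal ran from 1756 to 2861, and replicates 2 and 3 were the brighter arrays. The 4 arrays lay on 1 slide. The dimmest detected probe of each array had a signal between 15.6 and 15.9. A probe was called detected when most of its spots were marked well above background. Of 12 macrophage markers measured, 11 were detected on all arrays, and Adgre1, a surface receptor of many tissue macrophages, was detected on none. Of 18 measured genes listed as typical of alveolar macrophages, 12 were detected on all arrays (66.7%, against 52.4% of all named genes). Marco, the scavenger receptor that marks these cells in the lung, was detected on no array, nor were F7, Ctsk, Cd2 and Bach2, and Abcc3 was detected on 1.

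Of the 10 genes of the programme, 9 were detected on all 4 arrays and Car4 was detected on none. Over all named genes the share detected on all arrays was 52.4%. Levels below are log2 signals relative to the 75th percentile of the same array. They describe 1 probe or gene across arrays, and probes of different genes are not ranked against each other. No gene of the 9 detected spanned over 2-fold between the cultures, against 1.11% of 8685 detected genes. The median SD over the 9 genes was 0.113, against 0.0926 over all detected genes. Without replicate 1 these medians were 0.0726 and 0.0824, and without replicate 4 they were 0.0673 and 0.0797. No culture was highest throughout. Replicate 1 was highest for 2 genes and lowest for 3, replicate 2 highest for 3 and lowest for 2, replicate 3 highest for 2 and lowest for 1, and replicate 4 highest for 2 and lowest for 3.

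**Figure D1:**
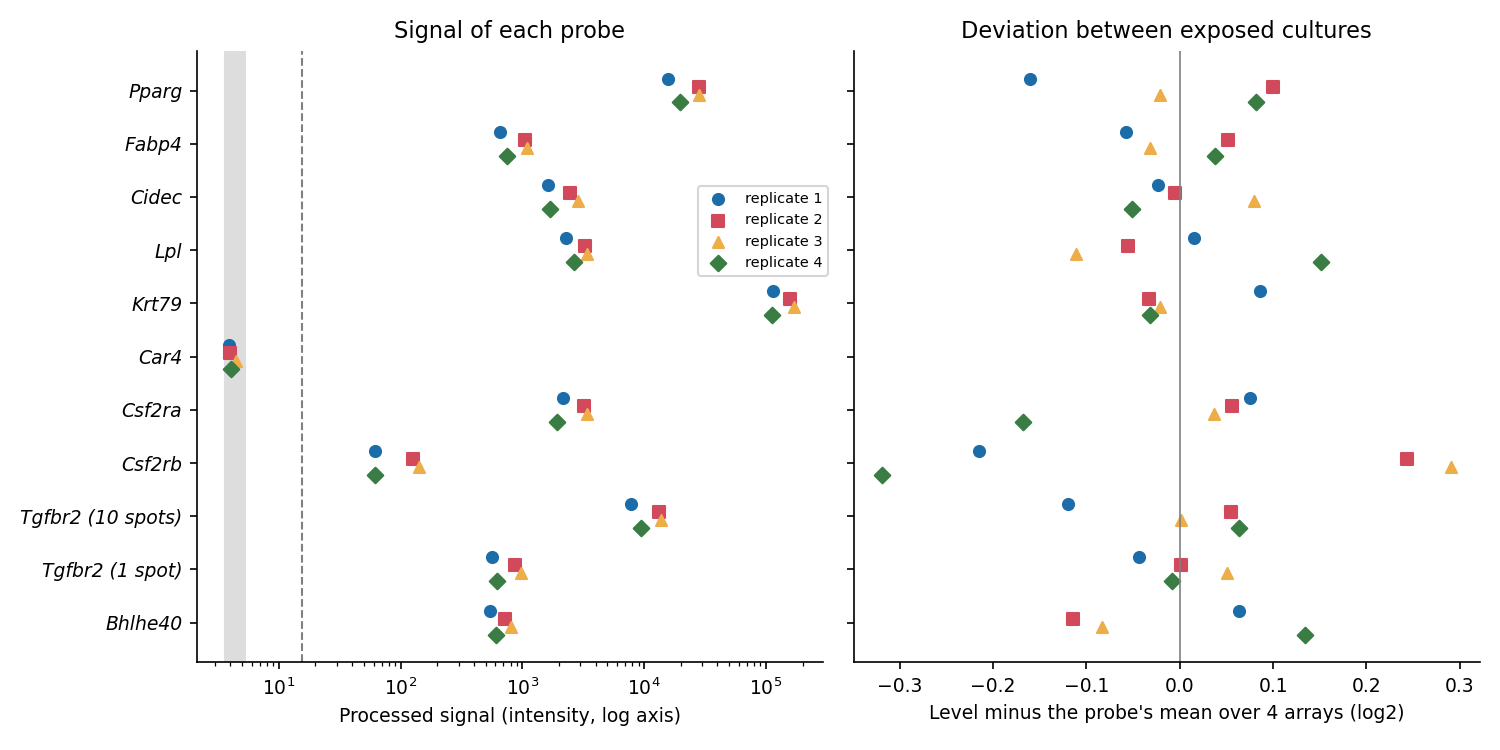
Left, processed signal (intensity, log axis) of the 11 probes on each of 4 arrays, with a grey band from the lowest median to the highest 95th percentile of negative control spots and a dashed line at the lowest signal of any detected probe; Car4 lies in the band. Right, level of each detected probe minus its own mean over the arrays (log2); Csf2rb spreads most, with replicates 2 and 3 above replicates 1 and 4.

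Pparg encodes the nuclear receptor that commits fetal monocytes to the alveolar macrophage fate. Its single probe, A_64_P229432, gave signals of 15701, 28192, 28179 and 19818 on replicates 1 to 4. Relative to each array's 75th percentile these were levels of 3.16, 3.42, 3.30 and 3.40, with a mean of 3.32 ± 0.12 (SD, n = 4). Replicate 1 was the lowest, and the span between cultures was 0.26, or 1.20-fold. The probe was printed as 1 spot per array, so this spread cannot be told apart from spot noise. The gene has more than 1 start site in RefSeq, and the table of promoters holds a pair of them. Both are shown because the probe reads transcripts of the gene without telling which start was used. Each sequence is the 250 bases before the start on the gene's strand, from RefSeq on assembly GRCr8, with matches to the PU.1 core GAGGAA and the C/EBP site TTGCNNAA in capitals, searched on both strands.
Pparg start 1, chr4:150096808-150097057, + strand: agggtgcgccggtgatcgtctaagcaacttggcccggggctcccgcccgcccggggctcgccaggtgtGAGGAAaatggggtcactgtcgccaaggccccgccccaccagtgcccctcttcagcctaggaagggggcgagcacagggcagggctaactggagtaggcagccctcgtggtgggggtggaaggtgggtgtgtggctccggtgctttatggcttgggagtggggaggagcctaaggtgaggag
Pparg start 2, chr4:150154522-150154771, + strand: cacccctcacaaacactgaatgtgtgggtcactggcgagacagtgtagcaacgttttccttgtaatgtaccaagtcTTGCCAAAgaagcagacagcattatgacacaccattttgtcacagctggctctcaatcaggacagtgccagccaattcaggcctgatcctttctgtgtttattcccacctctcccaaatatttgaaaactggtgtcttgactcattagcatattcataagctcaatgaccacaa
The 2 windows differ in composition. The first is 67.2% G and C with 13 CpG dinucleotides, and the second is 44.8% with 2, against medians of 51.2% and 5 over the 33469 windows of the table. The PU.1 core begins 182 bases before the first start and the C/EBP match 174 bases before the second.

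The lipid genes of the programme spanned at most 1.20-fold between cultures. Fabp4 encodes a cytosolic carrier of fatty acids and is a classical PPARG target. Its probe, A_43_P12786, gave signals of 654, 1057, 1085 and 745, which are levels of -1.42, -1.32, -1.40 and -1.33 (mean -1.37 ± 0.05, SD, n = 4). The cultures differed by no more than 0.11, or 1.08-fold, and replicate 1 was the lowest. Cidec encodes a protein of the lipid droplet surface that promotes droplet growth. Its probe, A_44_P714007, gave signals of 1627, 2469, 2847 and 1702, and levels of -0.11, -0.09, -0.01 and -0.14 (mean -0.09 ± 0.06, SD, n = 4). Replicate 3 was the highest of a span of 0.13. Lpl encodes lipoprotein lipase, the secreted enzyme that frees fatty acids from circulating triglycerides. Its probe, A_44_P1016480, gave signals of 2274, 3244, 3393 and 2665, and levels of 0.37, 0.30, 0.25 and 0.51 (mean 0.36 ± 0.11, SD, n = 4). Replicate 4 was the highest and replicate 3 the lowest, 0.26 apart. Each of these probes was printed as 1 spot per array, so the spread between cultures cannot be told apart from spot noise.

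Krt79 encodes a type II keratin of skin and hair follicle that also belongs to the signature of mouse alveolar macrophages. Its probe, A_64_P110526, was printed as 10 spots per array and gave mean signals (geometric means of the spots, here and below) of 113470, 156511, 171627 and 111546, with no spot saturated. Within an array the 10 spots ranged from 107056 to 122848 on replicate 1, 148212 to 169292 on replicate 2, 162381 to 182263 on replicate 3 and 106115 to 117872 on replicate 4. The levels were 6.01, 5.89, 5.91 and 5.90 (mean 5.93 ± 0.06, SD, n = 4), so replicate 1 stood above 3 arrays that were nearly equal. The arrays differed by 0.12, or 1.09-fold, in limma's moderated F test over replicate spots with Benjamini-Hochberg adjustment (adjusted p = 0.000448). Of the 1038 probes printed 10 times, 682 (65.7%) passed the same test. The call was lost without replicate 1, with a range of 0.0069 and an adjusted p from limma of 0.977. It was also lost with normexp correction, with a range of 0.0434 and an adjusted p from limma of 0.9995. Under quantile normalization the range was 0.34 and replicate 1 became the lowest array, so the direction depends on the scaling. Of 8 other keratins on the list that had a probe, none was detected on all arrays, and Krt4 and Krt7 were each detected on 1. With the looser detection flag 4 of the 8 were. Among all 46 other keratin genes measured, 6 were detected on all arrays. The probe's own sequence was not used here, and signal from related transcripts was not tested.

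Car4 encodes a carbonic anhydrase held on the outer cell surface, which is high in alveolar macrophages and also in lung capillary endothelium. Its probe, A_42_P580973, was printed as 2 spots per array and gave mean signals of 3.93, 4.02, 4.42 and 4.04. These lay within the range of the 308 negative control spots, whose median signal per array was 3.64 to 4.16 and whose 95th percentile was 4.85 to 5.30. The error that the scanner software deposited for these spots was as large as the signal, with a median per array between 99.5% and 101% of it. None of the spots was well above background, and under the looser flag 1 of 2 spots passed on replicate 1 and none on the other arrays. Car4 was therefore not well above background in any exposed culture, and no fold between cultures is given. Of 11 other carbonic anhydrases listed, 5 were detected on all arrays (45.5%, against 52.4% of all named genes). Car5b, a mitochondrial form, was at -1.57 ± 0.04 (SD, n = 4). The others of these, Car2, Car9, Car13 and Car14, had lower means of -5.64 to -5.09. Among all 14 other carbonic anhydrase genes measured, 6 were detected on all arrays, which adds Car11 at -3.72 ± 0.17 (SD, n = 4).

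The chains of the GM-CSF receptor were both detected, and they were spread differently over the cultures. Csf2ra, the ligand-specific alpha chain, was read by probe A_43_P18551 with signals of 2156, 3187, 3421 and 1944. Its levels were 0.30, 0.28, 0.26 and 0.05 (mean 0.22 ± 0.11, SD, n = 4), so 3 cultures lay within 0.04 and replicate 4 was lower. Replicate 4 was the lowest array under every scaling and correction tried. The span was 0.24, or 1.18-fold. With 1 spot per array, the spread between cultures cannot be told apart from spot noise.

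Csf2rb, the signalling beta chain shared with the receptors of interleukins 3 and 5, was read by probe A_44_P398210 with signals of 61.8, 127, 143 and 61.4. Its levels were -4.83, -4.37, -4.32 and -4.93 (mean -4.61 ± 0.31, SD, n = 4). Replicates 2 and 3 were higher than replicates 1 and 4 by 0.53 on average (-4.35 against -4.88). The same difference over all detected genes had a median of 0.0022, with 10th and 90th percentiles of -0.23 and 0.14. The SD of Csf2rb exceeded that of 95.4% of the 8685 detected genes. The span was 0.61, or 1.53-fold. The deposited error of the single spot was 10.5% to 12.5% of its signal, where the bright Krt79 probe had 10%. This error is given per spot and does not measure spread between arrays. Without any 1 replicate the span lay between 0.50 and 0.61. Replicates 2 and 3 were also the brighter arrays, and the part of array brightness in this difference was not tested. The signal is low: the raw spot medians less the local background were 66.5, 128.5, 132 and 71. With normexp correction, which adds 50 to each corrected signal, the span was 0.0695. Only replicate 2 then stood apart, and replicate 3 lay beside replicates 1 and 4. With 1 spot per array there is no test for this gene.

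**Figure D2:**
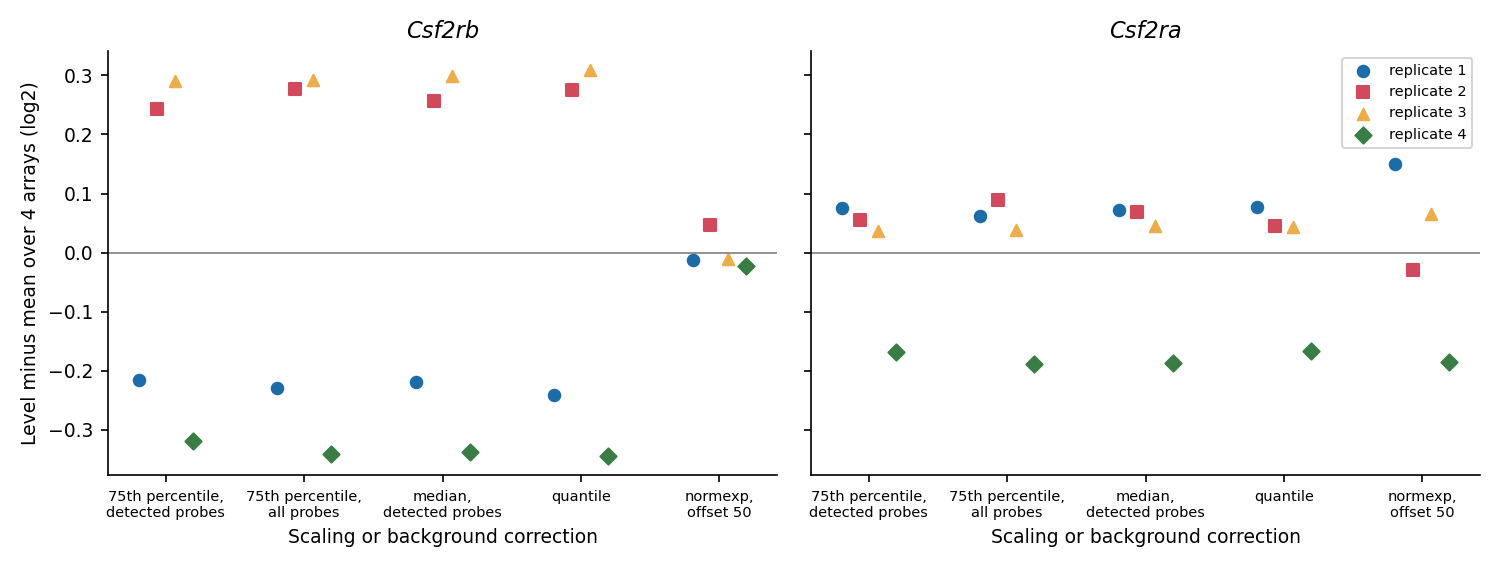
Level of Csf2rb (left) and Csf2ra (right) on each of 4 arrays minus the gene's mean (log2), under 4 scalings of the processed signal and under normexp correction of the raw median signal. The split of Csf2rb into replicates 2 and 3 above 1 and 4 holds under the 4 scalings. Under normexp the span is 0.0695 and only replicate 2 stands apart, at 0.047. Replicate 3 then lies at -0.011, beside replicates 1 and 4 at -0.013 and -0.023. For Csf2ra replicate 4 stays lowest in all 5.

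The window before the Csf2ra start is shown because it holds a match to the longer form of the PU.1 site, GAGGAAGT, in capitals. PU.1 is the myeloid factor that drives this gene, and its own gene Spi1 was at 0.82 ± 0.07 (SD, n = 4).
Csf2ra, chr14:118118-118367, - strand: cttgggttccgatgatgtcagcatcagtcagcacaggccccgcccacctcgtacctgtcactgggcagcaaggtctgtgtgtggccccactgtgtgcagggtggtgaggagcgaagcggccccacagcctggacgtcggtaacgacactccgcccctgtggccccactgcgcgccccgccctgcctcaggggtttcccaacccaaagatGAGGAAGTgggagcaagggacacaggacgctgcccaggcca
The match runs from 41 to 34 bases before the start on the gene's strand. Over all windows of the same length 2.04% hold GAGGAAGT on either strand. The table holds no window for Csf2rb, Fabp4 or Lpl.

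Tgfbr2 encodes the type II receptor that binds transforming growth factor beta and recruits the type I receptor, and it was the only gene of the 10 with more than 1 probe. The probe printed 10 times, A_44_P1108700, gave mean signals of 7816, 13219, 13853 and 9466, and levels of 2.15, 2.33, 2.28 and 2.34 (mean 2.27 ± 0.08, SD, n = 4). Replicate 1 was the lowest. The probe printed once, A_64_P129315, gave signals of 565, 874, 983 and 618, and levels of -1.64, -1.59, -1.54 and -1.60 (mean -1.59 ± 0.04, SD, n = 4). Replicate 1 was again the lowest, though with normexp correction replicate 4 was. The probes disagreed on the level, with a gap of 3.79, 3.92, 3.82 and 3.94 on replicates 1 to 4. A gap of this size is not rare on these arrays. The median was 1.94 over 1712 genes with several detected probes, and 79.4% of them had a smaller gap. The probes were matched through different transcripts of the gene. Their mean gave a gene level of 0.34 ± 0.05 (SD, n = 4).

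The 10 spots of the first Tgfbr2 probe allowed a test between arrays, after 3 outlier spots had been left out. The arrays differed by 0.18, or 1.14-fold, in limma's moderated F test (adjusted p = 0.00131). Without replicate 1 the range was 0.0688 and the adjusted p from limma was 0.367. With normexp correction the range stayed at 0.18 but the adjusted p from limma was 0.377. Such calls were common, as among the probes printed 10 times (65.7%), and 746 of all 1742 probes with replicate spots (42.8%) passed. Such a call shows arrays that differ by more than spot noise on the processing used. Neither the Krt79 nor the Tgfbr2 call held without replicate 1 or with normexp correction. Cultures cannot be told apart from labelling or other effects of the array. A share this high gives the calls for Krt79 and Tgfbr2 no meaning particular to these genes.

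**Figure D3:**
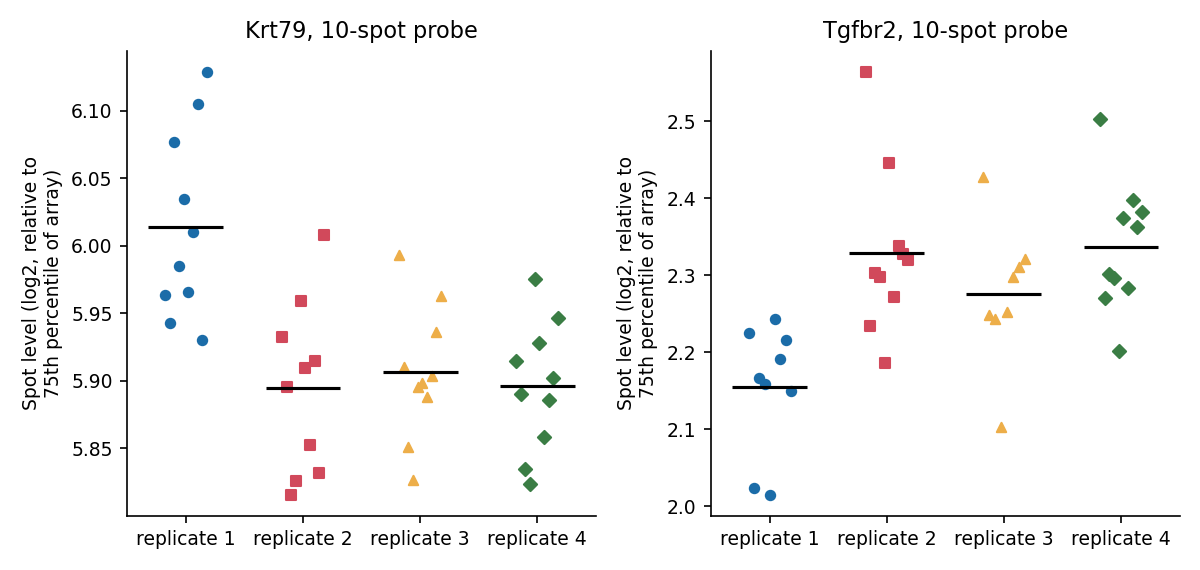
Level of each usable spot (points, log2 relative to the array's 75th percentile) and their mean (line) for the probes of Krt79 and Tgfbr2 printed 10 times on each of 4 arrays. Replicate 1 is highest for Krt79, with a mean of 6.01, and lowest for Tgfbr2, with a mean of 2.15, and the spots of different arrays overlap.

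Bhlhe40 encodes a basic helix-loop-helix repressor of the circadian and stress-response circuits. Its probe, A_43_P12768, gave signals of 544, 720.1, 800.2 and 609, and levels of -1.69, -1.87, -1.84 and -1.62 (mean -1.75 ± 0.12, SD, n = 4). Replicates 1 and 4 were higher than replicates 2 and 3 by 0.20, the opposite order to Csf2rb, and the span was 0.25, or 1.19-fold. That order held under the other scalings and with normexp correction. Taken as replicates 2 and 3 less replicates 1 and 4, the difference was -0.20. It lay within the 10th and 90th percentiles over all detected genes (-0.23 and 0.14). The probe was printed as 1 spot per array, so the difference cannot be told apart from spot noise. Replicates 2 and 3 were also the brighter arrays, and the part of array brightness was not tested. The window before its start is shown because it holds the E-box CACGTG, in capitals, the sequence that BHLHE40 itself binds.
Bhlhe40, chr4:143174200-143174449, + strand: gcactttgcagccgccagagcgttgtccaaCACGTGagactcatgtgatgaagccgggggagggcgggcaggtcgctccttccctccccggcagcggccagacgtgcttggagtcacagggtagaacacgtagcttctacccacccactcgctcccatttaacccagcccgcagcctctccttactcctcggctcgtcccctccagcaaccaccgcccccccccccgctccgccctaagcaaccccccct
The E-box runs from 220 to 215 bases before the start, and 5.59% of all windows hold one. It was the only CACGTG among the 10 windows of the 7 genes with an entry.

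Of the other motifs searched, GAGGAA, which includes every GAGGAAGT, was found for Csf2ra, Pparg and Tgfbr2, in 3 of 10 windows against 23.3% of all. TTGCNNAA was found for Cidec, Pparg and Tgfbr2, in 3 of 10 windows against 9.22% of all. The direct repeat of AGGTCA with 1 base between, the form that PPARG binds with a retinoid X receptor, was in none, against 0.0508% of all windows. A single AGGTCA, the unit of that repeat, was found before 1 start of Krt79 on both strands, against 14.1% of all windows. The STAT5 site TTCNNNGAA and the SMAD site GTCTAGAC were in none of the 10, against 7.67% and 0.173% of all. These are matches of letters in 250 bases and say nothing of binding.

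Of other genes of these pathways with a probe, 42 of 56 (75%) were detected on all arrays, against 52.4% of all named genes. By list the share ran from 58.3% for TGF-beta signalling to 88.9% for the lipid genes that PPARG is known to regulate. These lists were drawn up with earlier results of these arrays known. In GM-CSF signalling 11 of 14 were detected on all arrays. The kinase gene Jak2 had levels of -4.34, -4.28, -3.95 and -3.98. The STAT genes were Stat5a, at 2.28 ± 0.02, and Stat5b, at -2.13 ± 0.18 (SD, n = 4). Stat5a spanned 0.0408 between cultures, whereas Stat5b spanned 0.42. Csf2, which encodes GM-CSF itself, was not well above background on any array, nor were the feedback inhibitor genes Socs1 and Socs2. Socs3, of the same family and list, was detected on all arrays at -2.88 ± 0.05 (SD, n = 4), as was the STAT5 target Cish.

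Among partners and coregulators of PPARG, 8 of 12 were detected. Of the retinoid X receptor genes listed as its dimer partners, Rxra was at -4.12 ± 0.12 and Rxrb at -0.89 ± 0.03 (SD, n = 4). Cebpb, a C/EBP factor of macrophages, was at 2.41 ± 0.13 (SD, n = 4), its pair of probes 3.74 apart. Cebpa, the related factor of early myeloid cells, was not well above background by either of 2 probes, and Ppara, Ppargc1a and Ncoa2 were detected on no array. Of the lipid genes that PPARG is known to regulate, 16 of 18 were detected. The scavenger receptor gene Cd36 had a mean of -0.96 ± 0.09, with probes 5.08 apart. The lipid droplet coat gene Plin2 had levels of 1.25, 1.22, 1.28 and 1.33. The cholesterol exporter gene Abcg1 was at 4.85 ± 0.10 and the fatty acid carrier gene Fabp5 at 4.70 ± 0.04 (SD, n = 4). Scd and Pdk4 stayed below the detection flag on all arrays. No lipid gene of this list spanned over 2-fold.

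The TGF-beta list had 7 of 12 measured genes detected on all arrays. The ligand gene Tgfb1 had levels of 0.61, 0.35, 0.46 and 0.45, highest on replicate 1. The type I receptor gene Tgfbr1 was at -3.33 ± 0.19, from 1 of its 2 probes. Of the signal carriers, Smad2 was at -1.58 ± 0.10 and Smad4 at -3.82 ± 0.10 (SD, n = 4), whereas Smad3 was not well above background. Tgfb2, Tgfb3, Tgfbr3 and Ltbp1 were also detected on no array. No probe was matched to Bhlhe41 or Itgax.

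**Figure D4:**
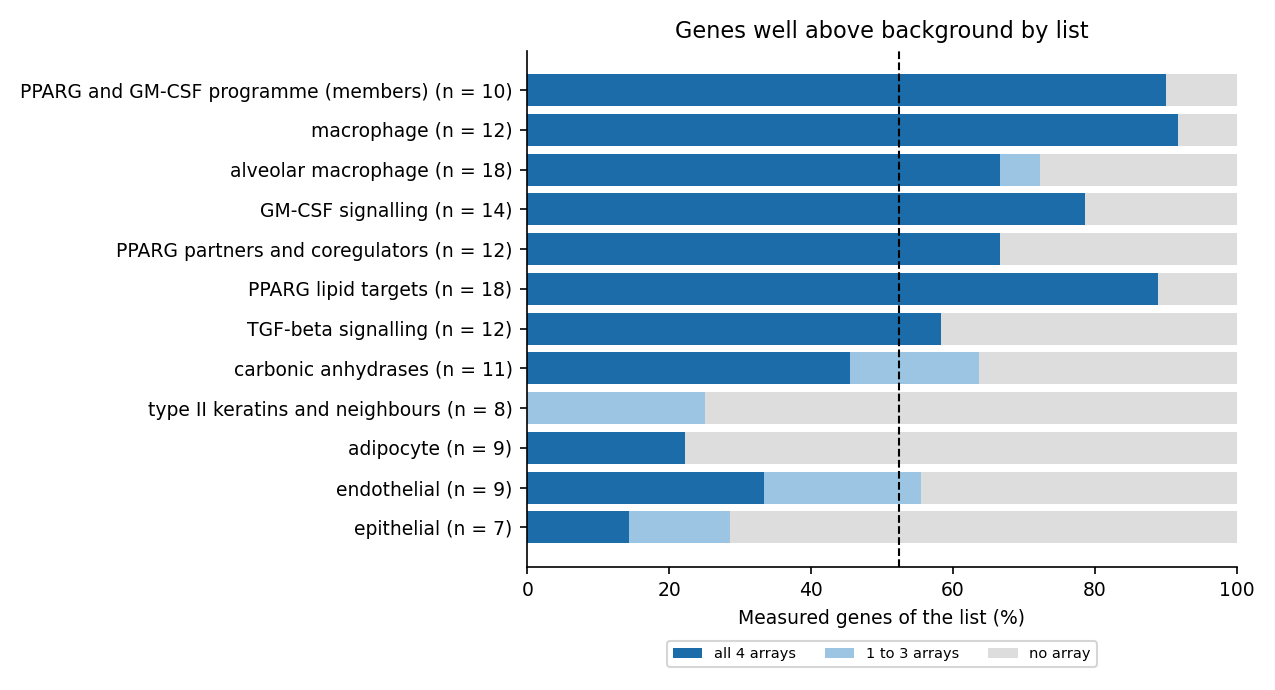
Share of measured genes of each list (%) that were well above background on all 4 arrays, on 1 to 3 arrays or on no array, with the number measured in brackets. The dashed line marks the 52.4% of all named genes detected on all arrays; the 10 genes of the programme reach 9 of 10, and the keratin list has none detected on all.

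Several of the 10 genes are also known from other cells, Pparg, Fabp4, Cidec and Lpl from fat cells and Car4 and Fabp4 from capillary endothelium. Markers of adipocytes, endothelium and epithelium were detected on all arrays for 6 of 25 measured (24%, against 52.4% of all named genes). Of 9 adipocyte markers, Cfd and Retn were detected, at 2.62 ± 0.06 and 6.28 ± 0.28 (SD, n = 4). The defining adipocyte genes Adipoq and Lep stayed below the detection flag on all arrays, nor were Lipe, Slc2a4, Adrb3, Aqp7 and Ucp1, and no probe was matched to Plin1. Of 9 endothelial markers, Pecam1, Vwf and Cdh5 were detected, at -0.89 ± 0.14, -1.32 ± 0.12 and -5.49 ± 0.24 (SD, n = 4). Kdr and Gpihbp1 were detected on 2 arrays and Tek, Tie1, Emcn and Ednrb on none. Of 7 epithelial markers, Ager was detected, at -5.12 ± 0.13 (SD, n = 4). Krt14 was detected on 1 array, and Krt5, its partner keratin of basal epithelium, on none. With the looser flag 9 of the 25 markers were detected on all arrays.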

How the data were processed

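Spots were read with Agilent Feature Extraction 11.0.1.1 (named in the file headers), and each deposited file lists single spots. Its processed signal, an intensity, had background and spatial trend removed array by array, per the file headers, and was not scaled between arrays. The signal error, the raw median intensities and flags of 0 or 1 were used as deposited.

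Outlier spots (427 to 714 per array) were dropped, log2 signals were averaged over the spots of a probe, and the 75th percentile of the 17807 probes that all arrays detected was subtracted per array, because under 50% were detected (40.8% to 43.7%). A gene's level is the mean of its detected probes. Names came from a RefSeq table of assembly GRCr8, which named 21109 of 45598 probes. The array design names another build, so no probe coordinates are given. The members and gene lists were chosen with earlier results of these data known. All 10 members and 25 listed genes were named whatever their values, and other genes named from the lists were chosen after their values were seen. Arrays were compared with limma 3.58.1 (R 4.3.3) over probes with at least 2 usable spots, threshold 0.05 after Benjamini-Hochberg adjustment. P-values measure spread between these arrays, which may be technical. On simulated data over 1742 probes, sets of 50 probes were changed by 0.1, 0.25, 0.5 or 1 (log2) on replicate 2 only. Of these sets 28%, 60%, 76% or 100% were called, and 3 of 1542 unchanged probes were called. Spots were drawn independently from a normal distribution, and probes printed 2 and 10 times were pooled. The number of arrays, 4, limits the precision. Alternatives were other scalings, normexp correction of the median signal, since the mean signal was not used here, quantile normalization, other detection and outlier rules, the brightest probe, and leaving out each replicate.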

Additional observations from a re-analysis of the deposited data

Results flagged for a closer look

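On the scaling used here, in 3 of the 9 detected genes a single array lay far from the rest, judged by the gap to its nearest neighbour over the whole range (Dixon's test, 95% level). Over the 23 genes tested, which include 14 other named genes with none apart, chance alone gives about 1.15. Tgfbr2 was at 0.26 on replicate 1 against 0.37 on each of the others, a ratio of 0.980, but this arises in the mean of its probes, whose own ratios were 0.663 and 0.517 and did not pass. Krt79 was at 6.01 on replicate 1 against 5.89 to 5.91, a ratio of 0.898. Csf2ra was at 0.0534 on replicate 4 against 0.26 to 0.30, a ratio of 0.842. The count depends on the scaling. With all probes setting the percentile, none of the 9 genes passed, and the ratios were 0.645 for Tgfbr2, 0.577 for Krt79 and 0.819 for Csf2ra. With the median or with quantile normalization 1 gene passed, Csf2ra, at 0.894 and 0.859. With normexp 1 passed, Csf2rb, while Csf2ra was at 0.463, and under quantile normalization replicate 1 was the lowest array for Krt79. Each gap is small in size, with the whole spans at 1.08-fold, 1.09-fold and 1.18-fold.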

How the results depend on the processing

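All 9 detected genes stayed detected, and none spanned over 2-fold, under each alternative run. The median SD over them was 0.0673 to 0.112 when 1 replicate was left out, and with normexp it was 0.0895, below the 0.0988 of all genes. With normexp correction the span of Csf2rb was 0.0695 in place of 0.61, and 222 probes in place of 746 passed the limma test over replicate spots. The offset of 50 narrows differences of dim spots by its construction, and the cause for the bright ones was not tested. Scaling to all probes or to the median moved every level by 3.61 or 2.43 and left the order of Csf2rb between arrays in place. The looser flag moved every level by 0.78, because more probes set the percentile. Normexp moved levels by -0.35 to 0.66, and the brightest probe alone moved Tgfbr2 by 1.93. Over all genes the number spanning 2-fold was 96, and ranged from 21 with normexp to 2486 with no filter on dim probes. No paired analysis was possible because there is 1 group. Signal over background limits Car4. The print of 1 spot per array limits Pparg, Fabp4, Cidec, Lpl, Csf2ra, Csf2rb and Bhlhe40, and 1 of the Tgfbr2 probes.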

Other observations

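Other genes, grouped with these by symbol after the values had been seen, were detected unevenly. For all named genes the share on all arrays was 52.4%. Of 9 fatty acid binding protein genes measured, only Fabp4 and Fabp5 were above background on all arrays, and the other 7 on none. Of the lipase genes grouped here with Lpl, the lysosomal acid lipase gene Lipa was detected, at 1.70 ± 0.07 (SD, n = 4). The hepatic, endothelial and pancreatic lipase genes Lipc, Lipg and Pnlip were detected on no array. Cidea, a relative of Cidec known from brown fat, was at -0.70 ± 0.04 (SD, n = 4). Of the PPAR receptors, Ppard was at -4.94 ± 0.10 (SD, n = 4) and Ppara was not well above background.

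Of the receptors that use the beta chain encoded by Csf2rb, Il3ra was at -0.30 ± 0.10 (SD, n = 4) and Il5ra was not well above background. Of 46 keratin genes measured beside Krt79, 6 were detected on all arrays, 3 on some and 37 on none. Those 6 were Krt33a, Krt33b, Krt71, Krt81, Krt86 and Krt87, keratins of hair and its root sheath. Their mean levels were low, from -6.21 for Krt87 to -4.83 for Krt86, where the dimmest detected probe of an array lay at -7.49 to -6.81. Of the 6, Krt33a, Krt33b, Krt71 and Krt86 were highest on replicate 4, and Krt81 and Krt87 on replicate 1. Replicates 1 and 4 were the dimmer arrays, and the part of array brightness in this order was not tested. Of 12 other receptors of the TGF-beta superfamily, 4 were detected on all arrays (against 52.4% of all named genes), among them Acvrl1 and Bmpr2.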
